A study of Homo sapiens with 16 samples.

Results

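The HOXB13 peaks described here were called in LNCaP cells after HOXB13 knockdown and overlapped no HOXB13 peak of the other LNCaP libraries. LNCaP is an androgen-sensitive prostate cancer cell line. The HOXB13 ChIP-seq list of the knockdown cells held 22864 peaks, and 20381 of them (89.1%) overlapped, by at least 1 bp, no peak of the 3 other LNCaP HOXB13 lists. These 20381 peaks are called knockdown-alone peaks, and the remaining 2483 peaks of the list are called shared. The members were chosen by measured values, since the calls of the 4 HOXB13 libraries decide which peaks are members. Their tag counts, scores and folds in those libraries are therefore given as a description with no test.

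The 4 LNCaP HOXB13 libraries came from cells infected for 7 days. One culture received a hairpin against HOXB13 (shHOXB13, the knockdown). Another pair received the same hairpin plus a second lentivirus for HOXB13-WT or the variant HOXB13-G84E, so both of these carried the knockdown as well. The last received the control hairpin vector pGIPZ. Other peak lists, 8 in all, were looked up. In LNCaP cells with shHOXB13 and with pGIPZ these were HDAC3 ChIP-seq and ATAC-seq. HDAC1 ChIP-seq came from LNCaP cells with pGIPZ alone. The LNCaP cells of these lists were infected for 7 days as well. In PC-3 cells, H3K27ac ChIP-seq was made with shHOXB13 and with pGIPZ, and HOXB13 ChIP-seq with pGIPZ. PC-3 is an androgen-independent prostate cancer cell line, and its HOXB13 library was made with another antibody than the LNCaP HOXB13 libraries, per the labels. The promoter that drives the re-expressed HOXB13, the level it reached and the depth of the knockdown in protein are not given in the sources used here. Nor is the infection time of the PC-3 cells. The 4 LNCaP H3K27ac samples of the series were not analysed here. Each group held 1 library, so no p-value can be given and every interval below covers counting error over peaks or tags only, not the spread between cultures.

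HOXB13, a homeodomain protein, marks prostate epithelium and binds DNA in part beside the androgen receptor. HDAC3 removes acetyl groups from histones within the NCOR and SMRT corepressors, and HDAC1 is the deacetylase of other corepressor complexes such as NuRD and SIN3. ATAC-seq marks open chromatin, and H3K27ac marks active promoters and enhancers.

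The knockdown HOXB13 library was the deepest of the 12, with 47.2 M tags (M for mega), against 40.3 M in the WT library, 44.2 M in the G84E library and 34.4 M in the control library. It had the fewest HOXB13 peaks. The WT list held 190879, the G84E list 191796 and the control list 91430. Of all tags, 2.13% lay in peaks in the knockdown library, against 17.1% in the WT, 15.6% in the G84E and 9.17% in the control library. Of 35610 candidate knockdown peaks, 12673 were removed by the authors' filter against the surrounding 10000 bp. Peaks found in one list alone made up 89.1% of the knockdown list (Wilson 95% interval 88.7 to 89.5), 38.4% of the WT list, 40.8% of the G84E list and 23.3% of the control list. These shares depend on how many peaks the other lists hold.

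Most knockdown-alone peaks stood just above the calling threshold. Their normalized tag count, in tags per 10 M, had a median of 4.87, with 90% of peaks between 4.03 and 6.78. The shared knockdown peaks had a median of 5.51, and the top 5% of them lay above 86.8, against 6.78 for the knockdown-alone peaks. The authors' findPeaks score had a median of 21 in knockdown-alone peaks, against a library threshold of 20 tags. At that lowest score lay 7570 of the knockdown-alone peaks, or 37.1%. The fold over the local background, for which the authors required 4, had a median of 5.29 in knockdown-alone peaks and 5.40 in shared peaks.

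The share of knockdown peaks found in no other HOXB13 list fell as the score rose. It was 93.0% of 8142 peaks at a score of 20, 83.8% of 1681 peaks at 26 to 30, 45.5% of 312 peaks at 41 to 60, and 13.9% of 316 peaks above 100. Above 100 lay 44 knockdown-alone peaks. The score of each knockdown-alone peak was also scaled to the depth of the other libraries and set against their tag thresholds. So scaled, 62.9% of the scores reached the threshold of the G84E library and 45.4% those of the WT and of the control library. The rest fell short of those thresholds.

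**Figure D1:**
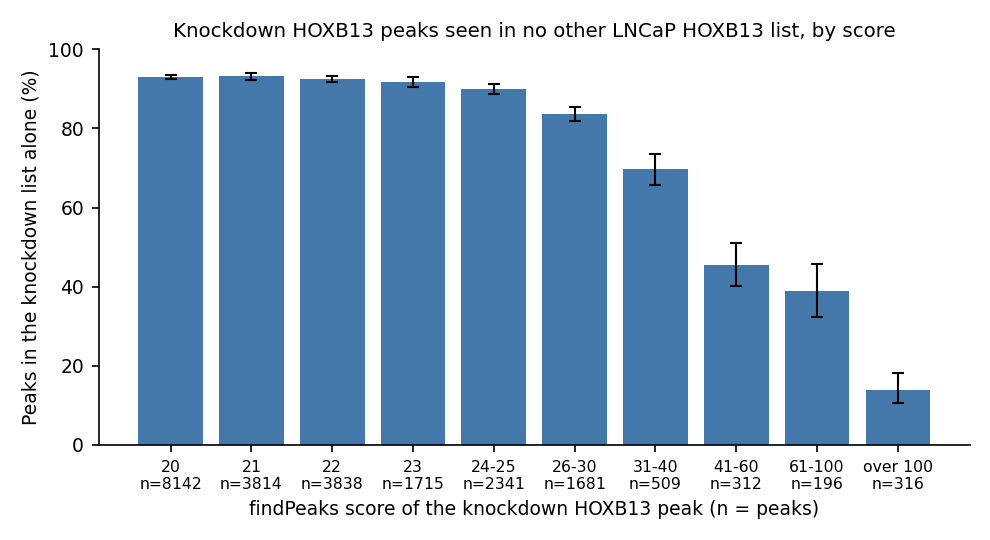
Bars give the share of knockdown HOXB13 peaks (%) that overlap no other LNCaP HOXB13 list, by the authors' findPeaks score, with Wilson 95% intervals and the number of peaks in each score class. The share is 93.0% at a score of 20 and 13.9% above 100.

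Some knockdown-alone peaks lay near HOXB13 peaks of other libraries without touching them. The median gap to the nearest peak of the WT, G84E or control list was 2607 bp, and 5004 knockdown-alone peaks (24.6%) lay within 1000 bp of one. Control peaks in no other HOXB13 list had a median gap of 2009 bp to the nearest peak of the WT, G84E or knockdown list. Of them, 31.8% lay within 1000 bp of one. These gaps are measured to unlike sets of lists, so they cannot be compared by size. The gap of randomly placed peaks was not tested. At the edge of the rule, the peak at chr12:93834210-93834466 (hg19, 5.51 tags per 10 M) lay 1 bp from a control peak with 8.15, and that at chr4:78963131-78963387 (4.03) lay 1 bp from a WT peak with 6.21. On the other side of the edge, the knockdown peak at chr5:130584233-130584489 (4.87) was left out by 1 bp of overlap with a control peak of 6.40, and that at chr6:111889799-111890055 (4.45) by 1 bp with a control peak of 5.24. The peaks named here on each side of the edge had like tag counts.

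For the 10 strongest knockdown-alone peaks, the nearest peak of another HOXB13 library was strong too, though at distances from 170 to 24035 bp. The peak at chr6:58779098-58779354 had 650.1 tags per 10 M, and a control peak with 726.1 lay 172 bp away. The peak at chr11:51582628-51582884 had 620.6, with a WT peak of 546.5 at 1922 bp. The peak at chr10:42534948-42535204 had 545.6, with a control peak of 806.1 at 5339 bp. Of the 10 strongest, 4 further ones lay on chromosomes 18, 2 and 11 with 177.3 to 311.9 tags per 10 M, 2 on the Y chromosome with 199.4 and 216.8, and 1 on an unlocalised contig of chromosome 9 with 268.7. Their nearest peak of another HOXB13 list lay at 170 to 24035 bp. At 8 of these 10 the PC-3 H3K27ac lists also had regions, with 98.4 to 3571.8 tags per 10 M after shHOXB13 and 156.4 to 4551.1 with pGIPZ. The HDAC3 list of shHOXB13 cells had a peak at 4 of them, with 182.8 to 671.3. The HDAC1 list had a peak at none of the 10. The headers name no excluded regions, and the part of repeats in these 10 was not tested.

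With these 10 included, strong knockdown-alone peaks were few. A normalized tag count of 10 or more was reached by 235 knockdown-alone peaks (1.15%), of 20 or more by 57 and of 100 or more by 13. Off the autosomes and X lay 106 knockdown-alone peaks (0.520%), against 133 of the shared peaks (5.36%).

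In the 8 lists that the choice of peaks did not use, 3 of them from PC-3 cells, knockdown-alone peaks overlapped a peak far less often than shared knockdown peaks. Of the 20381, 16580 (81.4%, Wilson 95% interval 80.8 to 81.9) overlapped no peak of any of the 8 lists, against 892 of the 2483 shared peaks (35.9%, 34.1 to 37.8) and 76.4% of the whole knockdown list. The share was 84.7% in WT-alone, 88.9% in G84E-alone and 73.9% in control-alone peaks, so it lay within the range of peaks found in a single HOXB13 list. Each of the 8 shares was lower in knockdown-alone peaks, with differences of -29.3 to -16.7 percentage points. The shares over the whole knockdown list, 89.1% of which are knockdown-alone peaks, are given beside each as background. The choice of peaks bears on all 8 differences, since a shared peak is by definition a site called again in another LNCaP library.

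HDAC3 of shHOXB13 cells was called at 5.15% of knockdown-alone peaks and 34.2% of shared peaks, with 8.3% over all knockdown peaks. The difference was -29.0 percentage points (Newcombe 95% interval -30.9 to -27.1). HDAC3 of pGIPZ cells was called at 6.16% and 35.5%, with 9.35% over all, a difference of -29.3 points (-31.3 to -27.4). HDAC1 was called at 6.34% and 25.6%, with 8.44% over all, a difference of -19.3 points (-21.1 to -17.6). The shares of knockdown-alone peaks depended on the overlap rule, and with peak centres within 100 bp they were 2.56%, 3.13% and 3.14% for the 3 lists in the order given. Among peaks at least 8-fold over the local background they were 11%, 10.7% and 9.80%.

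Open chromatin of shHOXB13 cells was called at 4.62% of knockdown-alone peaks and 21.4% of shared peaks, with 6.43% over all, a difference of -16.7 points (-18.4 to -15.1). Open chromatin of pGIPZ cells was called at 5.49% and 23.8%, with 7.47% over all, a difference of -18.3 points (-20.0 to -16.6). HOXB13 of PC-3 cells was called at 2.51% and 31.0%, with 5.6% over all, a difference of -28.5 points (-30.3 to -26.7). In ratio this gap was the widest of the 8, with a share 0.0810 times that of shared peaks. The choice of peaks bears on this gap, since shared peaks are those that recur in another HOXB13 list. PC-3 H3K27ac after shHOXB13 was called at 12.4% and 38.9%, with 15.3% over all, and PC-3 H3K27ac with pGIPZ at 12.3% and 40.1%, also with 15.3% over all. The difference was -26.5 points (-28.5 to -24.6) after shHOXB13 and -27.8 points (-29.8 to -25.8) with pGIPZ. H3K27ac regions are wider than the other peaks, so their shares cannot be set beside the others by size.

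Shared peaks were stronger, and part of these gaps moved with strength. Weighted to like groups of knockdown tag count, all 8 differences kept their direction with intervals that left out 0. They then ran from -11.7 points (-13.5 to -10.0) for HDAC1 to -22.8 points (-24.7 to -20.8) for PC-3 HOXB13. Among the shared peaks, those at control sites met the 8 lists more often than those at sites of WT or G84E alone. Knockdown-alone peaks were below both in all 8 lists. For HDAC3 of shHOXB13 cells the shares were 5.15% of knockdown-alone peaks, 20.2% of shared peaks at WT or G84E sites alone and 45.8% of shared peaks at control sites.

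Set against peaks found in the control HOXB13 list alone, knockdown-alone peaks stood out for HDAC1. HDAC1 of pGIPZ cells was called at 6.34% of knockdown-alone peaks (1293 of 20381) and 1.59% of the 21301 control-alone peaks, a difference of 4.76 points (4.39 to 5.14) and a ratio of 4.0. It was called at 0.734% of WT-alone and 0.40% of G84E-alone peaks. HOXB13 of PC-3 cells went the other way, at 2.51% of knockdown-alone and 8.83% of control-alone peaks, a difference of -6.32 points (-6.76 to -5.89). With HOXB13 lists of equal length the HDAC1 difference was 4.98 points (4.47 to 5.47) and the PC-3 HOXB13 difference -22.1 points (-23.2 to -21.1). WT-alone peaks had 6.35% and G84E-alone peaks 4.47%, both above the knockdown-alone share. For HDAC1, the rest of the knockdown list lay higher still, at 25.6% of shared peaks. It was 15.3% of the shared peaks at WT or G84E sites alone, so the higher HDAC1 share was not particular to knockdown-alone peaks.

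For HDAC3, open chromatin and PC-3 H3K27ac the differences from control-alone peaks were smaller with the lists as deposited, but those for HDAC3 and open chromatin of shHOXB13 cells were not with lists of equal length. HDAC3 of shHOXB13 cells was called at 5.15% and 6.11%, a difference of -0.961 points (-1.40 to -0.518). That difference changed sign when every list was cut to its better-scoring 50%, at 0.220 points (-0.536 to 0.966), and was -10.5 points (-11.4 to -9.55) when each HOXB13 list was cut to its 22864 best-scoring peaks. HDAC3 of pGIPZ cells was called at 6.16% and 7.30%, a difference of -1.14 points (-1.62 to -0.657). Open chromatin was called at 4.62% and 6.13% in shHOXB13 cells, a difference of -1.51 points (-1.95 to -1.08), and at 5.49% and 6.02% in pGIPZ cells, a difference of -0.533 points (-0.980 to -0.0852). With HOXB13 lists of equal length, the difference for open chromatin of shHOXB13 cells was -13.6 points (-14.5 to -12.7). PC-3 H3K27ac was called at 12.4% and 12.8% after shHOXB13 and at 12.3% and 12.2% with pGIPZ, and the intervals of both differences (-0.983 to 0.291 points, and -0.458 to 0.801 points) held 0. In WT-alone and G84E-alone peaks these shares were lower, at 2.14% and 1.07% for HDAC3 of shHOXB13 cells and at 7.58% and 5.85% for PC-3 H3K27ac after shHOXB13. A peak width of 256 bp in the knockdown and 290 bp in the control list bears on all of these shares, and the part of width in them was not tested.

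**Figure D2:**
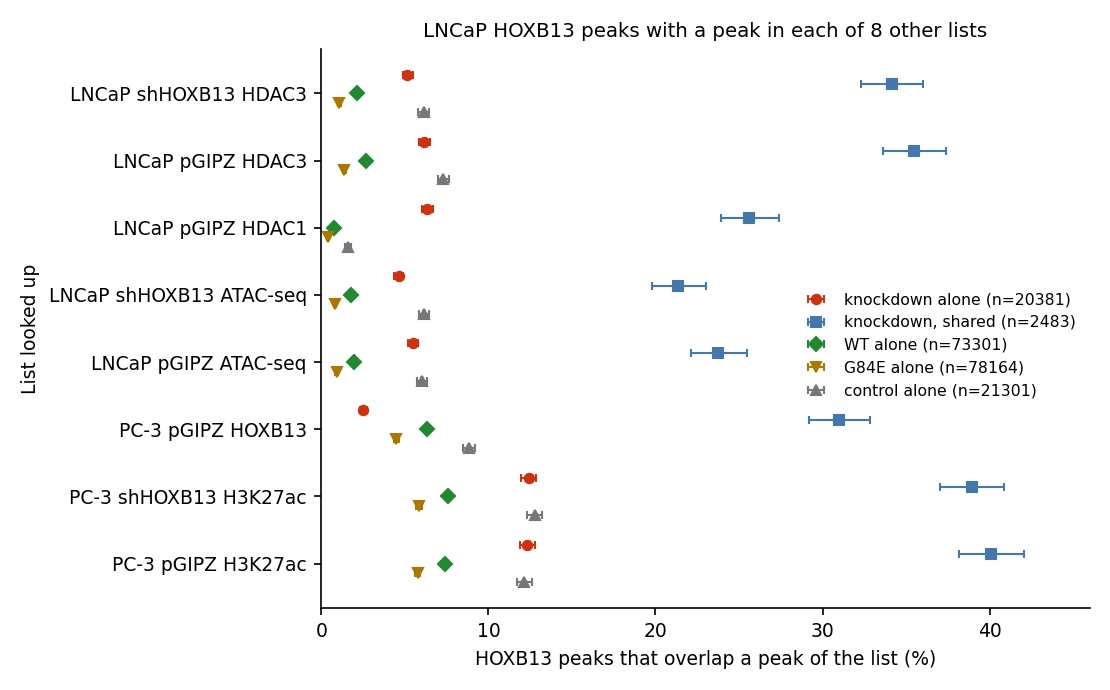
Points give the share of LNCaP HOXB13 peaks (%) that overlap a peak of each list, for knockdown-alone peaks, shared knockdown peaks and the peaks of the WT, G84E or control list alone, with Wilson 95% intervals. Shared knockdown peaks lie farthest to the right in all 8 lists, and knockdown-alone peaks lie right of the control-alone peaks at HDAC1 (6.34% against 1.59%) and left of them at PC-3 HOXB13 (2.51% against 8.83%).

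Some knockdown-alone peaks met several lists, where HDAC3, ATAC-seq and H3K27ac count as 2 lists each. One other list was met by 970 knockdown-alone peaks, 2 by 1083, 3 by 513, and all 8 by 60. The commonest combination was both PC-3 H3K27ac lists and none of the 6 others, at 797 peaks (3.91%), near the 3.99% of the whole knockdown list, the 4.67% of shared peaks and the 4.31% of control-alone peaks. All 5 LNCaP HDAC3, HDAC1 and ATAC-seq lists were met by 195 knockdown-alone peaks (0.957%), against 154 shared peaks (6.20%) and 1.53% of the whole knockdown list. The median tag count was 4.66 per 10 M in knockdown-alone peaks with no other list, 5.09 with 1 to 3, 5.51 with 4 to 6 and 5.30 with 7 or 8.

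Overlaps with the other lists were more frequent at stronger knockdown-alone peaks. Over 10 equal groups by tag count, from the weakest to the strongest, the share with an HDAC1 peak went from 2.06% to 18.3%, that with HDAC3 of shHOXB13 cells from 2.26% to 14.0%, that with open chromatin of shHOXB13 cells from 1.52% to 12.6% and that with PC-3 HOXB13 from 1.62% to 5.84%. Peaks with no other list made up 89.2% of the weakest group and 61.0% of the strongest. Peaks of equal tag count were split between neighbouring weak groups, so the groups between these ends are not described.

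The 1293 knockdown-alone peaks with HDAC1 met open chromatin, HDAC3 and PC-3 H3K27ac at higher shares than HDAC1 peaks in general. Their HDAC3 shares lay below those of shared and of control-alone peaks with HDAC1. PC-3 H3K27ac after shHOXB13 was called at 72.5% of them (70.1 to 74.9), against 62.2% of all 16632 HDAC1 peaks. Open chromatin was called at 44.6% of them in shHOXB13 cells, against 35.6% of all HDAC1 peaks, and at 53.2% of them in pGIPZ cells, against 43.9%. HDAC3 was called at 41.4% of them in shHOXB13 cells, against 35.5% of all HDAC1 peaks, and at 50.4% in pGIPZ cells, against 42.4%. PC-3 HOXB13 was called at 15.4% of them, against 16.7% of all HDAC1 peaks. HDAC1 peaks with a knockdown-alone peak were stronger, with a median tag count of 21.5 against 17.2 for those without. The lookup also used HOXB13 peaks of 256 bp on one side and HDAC1 peaks of 317 bp on the other. The parts of HDAC1 strength and of peak width in these differences were not tested. The 338 control-alone peaks with HDAC1 had higher shares of open chromatin (65.1% in shHOXB13 and 71.9% in pGIPZ cells). Their shares of HDAC3 (55.9% and 63.9%) and PC-3 HOXB13 (34.3%) were higher too, and PC-3 H3K27ac after shHOXB13 was at 76.6%. The 636 shared peaks with HDAC1 had higher shares of HDAC3 (65.7% and 69.5%) and PC-3 HOXB13 (49.2%). Their shares of open chromatin (40.9% and 45.1%) and of PC-3 H3K27ac after shHOXB13 (66.2%) were lower than those of knockdown-alone peaks with HDAC1.

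The 5 strongest knockdown-alone peaks at which HDAC3, HDAC1 and ATAC-seq were all called show the levels involved. At chr16:1075288-1075544 the knockdown HOXB13 library had 16.1 tags per 10 M (Poisson 95% interval 12.7 to 20.2), 17.0-fold over the local background. HDAC3 there had 30.0 tags per 10 M in shHOXB13 and 32.9 in pGIPZ cells, HDAC1 had 26.5, and ATAC-seq had 15.7 in shHOXB13 and 14.7 in pGIPZ cells. The nearest peak of another LNCaP HOXB13 list was 43508 bp away, while the PC-3 HOXB13 list had a peak of 13.0 at the site. At chr14:50329425-50329681 the knockdown HOXB13 library had 14.0, HDAC3 had 46.4 in shHOXB13 and 49.2 in pGIPZ cells, and a control HOXB13 peak of 12.5 lay 75 bp away. The 3 others, on chromosomes 20, 1 and 16, had 9.75 to 15.5 tags per 10 M and a peak of another LNCaP HOXB13 list at 369 to 6856 bp. HDAC3 was thus called in both shHOXB13 and pGIPZ cells at these peaks, as the rule that picked them required.

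Looked at from the other lists, knockdown-alone HOXB13 peaks were found more often at the stronger deacetylase, open chromatin and acetylation peaks. Each list was cut into 10 equal groups by its own tag count. Of HDAC1 peaks, 3.43% of the weakest group and 12.2% of the strongest group held one, with 7.77% overall. Of HDAC3 peaks of shHOXB13 cells it was 2.00% and 8.36%, with 3.39% overall. Of PC-3 H3K27ac regions after shHOXB13 it was 1.63% and 13.4%, with 4.96% overall. Those acetylated regions with a knockdown-alone peak were wider, with a median of 2674 bp against 1848 bp for those without, and the part of width in this rise was not tested. Of ATAC-seq peaks of shHOXB13 cells it was 1.84% and 4.11%, with 3.25% overall. All HDAC1, HDAC3 and ATAC-seq peaks have 1 width per list. Shared knockdown peaks rose too, from 1.98% to 11.2% at HDAC1, 1.03% to 12.9% at HDAC3, 0.584% to 4.57% at H3K27ac and 0.701% to 4.95% at ATAC-seq. Control HOXB13 peaks of LNCaP rose from 8.35% to 17.3%, 20.6% to 38.6%, 11.3% to 49.8% and 24.8% to 31.4% at the same lists. The rise was thus not particular to knockdown-alone peaks.

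PC-3 HOXB13 peaks had the opposite order for knockdown-alone peaks. Of the weakest group 0.862% (0.672 to 1.11) held a knockdown-alone peak, and of the strongest group 0.367% (0.251 to 0.538). Control HOXB13 peaks of LNCaP were found at 18.4% of the weakest and 47.2% of the strongest group of the same PC-3 list. The strongest group of PC-3 HOXB13 peaks thus held control LNCaP peaks more often, and knockdown-alone peaks less often, than the weakest group. Shared knockdown peaks went the other way from the knockdown-alone ones, at 0.749% of the weakest and 2.47% of the strongest group. The choice of knockdown-alone peaks bears on this, since a knockdown-alone peak may lie beside a control peak but never on one.

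The deacetylase lists differed in how often they held control HOXB13 peaks. Knockdown-alone peaks were at 7.77% of HDAC1 peaks and control HOXB13 peaks at 10.7%. Knockdown-alone peaks were at 3.70% of HDAC3 peaks of pGIPZ cells, where control HOXB13 peaks were at 36.1%.

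**Figure D3:**
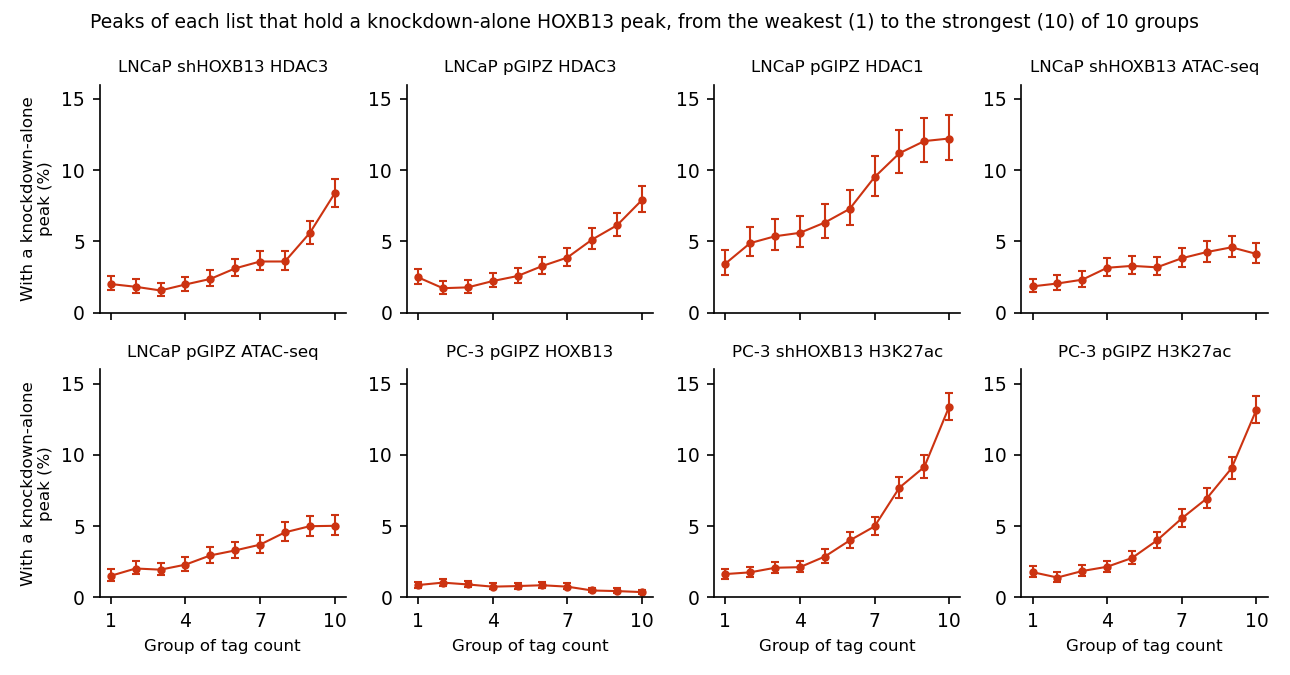
Each panel plots the share of peaks of 1 list (%) that hold a knockdown-alone HOXB13 peak against the group of tag count in that list, from weakest (1) to strongest (10), with Wilson 95% intervals. The share rises at HDAC1 (3.43% to 12.2%) and at PC-3 H3K27ac after shHOXB13 (1.63% to 13.4%) and falls at PC-3 HOXB13 (0.862% to 0.367%).

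HDAC3 at knockdown-alone peaks was largely present in both shHOXB13 and pGIPZ cells. Of 1256 HDAC3 peaks of pGIPZ cells with a knockdown-alone HOXB13 peak, 883 (70.3%, 67.7 to 72.8) were called again after shHOXB13, against 46.8% of 32708 without one and 47.7% of all. The difference of 23.5 points (20.9 to 26.0) was 12.4 points (10.0 to 14.8) once weighted to like tag counts. Of 1050 HDAC3 peaks of shHOXB13 cells with a knockdown-alone peak, 25.6% had no peak in pGIPZ cells, against 48.6% of those without one and 47.8% of all, a weighted difference of -12.1 points (-14.6 to -9.51).

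The change in HDAC3 tag count at these sites was about that at all HDAC3 sites. At the 883 pGIPZ peaks called again, the median log2 ratio of tag count, shHOXB13 over pGIPZ, was -0.46 (-0.50 to -0.42), against -0.44 over all 16184 HDAC3 peaks called again. Per bp of peak width, which was 365 bp in the shHOXB13 and 471 bp in the pGIPZ list, the median log2 ratio was -0.093 with a knockdown-alone peak and -0.073 over all. A log2 ratio of 1 or more was found at 5 of the 883 (0.566%), against 0.414% of all, and one of -1 or less at 130 (14.7%), against 15.2% of all. Both shares lay near those of all HDAC3 peaks.

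For open chromatin and PC-3 acetylation the differences weighted to like tag counts ran from -6.07 to 1.61 points. ATAC-seq peaks of pGIPZ cells with a knockdown-alone peak were called again after shHOXB13 in 56.8% of 1196 cases, against 49.8% without one and 50.0% of all, and weighted to like tag counts the difference was -0.993 points with an interval that held 0 (-3.69 to 1.70). ATAC-seq peaks of shHOXB13 cells had no pGIPZ peak in 27.6% of 973 cases with a knockdown-alone peak, against 38.5% without one and 38.1% of all, a weighted difference of -6.07 points (-8.79 to -3.35). PC-3 H3K27ac regions with pGIPZ were found again after shHOXB13 in 93.6% of 2447 cases with a knockdown-alone peak, against 78.6% without one and 79.4% of all, a weighted difference of 1.61 points (0.774 to 2.44). PC-3 H3K27ac regions after shHOXB13 had no pGIPZ region in 6.70% of 2463 cases with a knockdown-alone peak, against 20.6% without one and 19.9% of all, a weighted difference of -1.25 points (-2.10 to -0.393).

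Knockdown-alone peaks were unevenly spread over the chromosomes. Their density had a median of 7.39 per Mb over 23 chromosomes. It was highest on chromosome 17, with 10.3 per Mb, and lowest on X, with 0.431 per Mb (67 peaks), followed by chromosome 13 with 1.85. Compared with control-alone peaks, chromosome X held 0.329% of knockdown-alone and 1.16% of control-alone peaks, a ratio of 0.284. Chromosome 13 held 1.05% and 2.17%, and chromosome 2 held 4.58% and 6.41%. Chromosome 19 held 2.48% and 1.38%, a ratio of 1.79, and chromosome 17 held 4.10% and 2.71%. With intervals widened for 23 comparisons, the knockdown-alone share was above the control-alone share on 5 chromosomes (1, 16, 17, 19 and 20) and below it on 6 (2, 3, 4, 6, 13 and X).

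Around their own peaks, the HDAC3, HDAC1, ATAC-seq and HOXB13 libraries of LNCaP pGIPZ cells had fewer tags on X, the chromosome with the fewest knockdown-alone peaks. The other chromosomes followed this order in part. Around its shared peaks, the knockdown HOXB13 library had more tags on X. The local background around HDAC3 peaks of pGIPZ cells, as a median per 10 kb, was 73.2 tags on X, 102 on chromosome 13, 97.3 on chromosome 2 and 120 on chromosome 17. On chromosome 22, with 3.51 knockdown-alone peaks per Mb, it was 112 tags, and on chromosome 4, with 6.42 per Mb, 96.3 tags. Around ATAC-seq peaks of pGIPZ cells it was 143 on X, 198 on chromosome 13, 209 on chromosome 2 and 279 on chromosome 17. Around HDAC1 peaks it was 54.8 on X and 108 on chromosome 17, and around control HOXB13 peaks of LNCaP it was 83.4 and 132. In the knockdown HOXB13 library it was taken around shared peaks only, where it was highest on X, at 272 tags. There it was 242 on chromosome 22, 209 on chromosome 17 and 128 on chromosome 13. How many shared peaks lie on X is not given here. Over the 23 chromosomes, the density of knockdown-alone peaks had a Spearman rho of 0.53 with that HDAC3 background, 0.58 with the ATAC-seq background and 0.80 with the density of ATAC-seq peaks. These describe 23 chromosomes that share cells, copy number and base composition. The part of local tag density in the uneven spread was not tested.

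**Figure D4:**
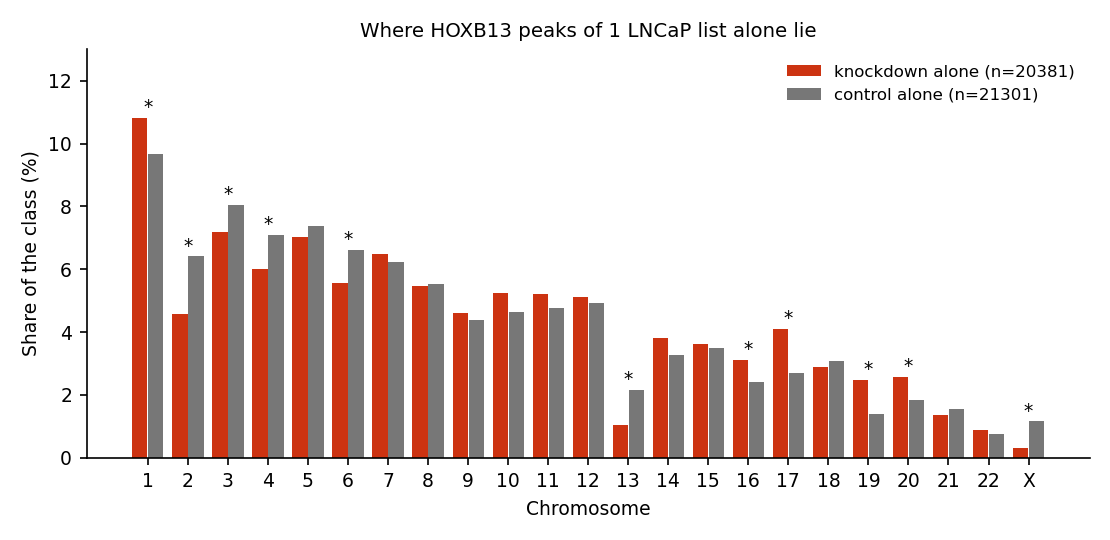
Bars give the share (%) of knockdown-alone peaks and of control-alone HOXB13 peaks on each chromosome, and an asterisk marks a difference whose Newcombe interval, widened for 23 comparisons, leaves out 0. Chromosome X holds 0.329% of knockdown-alone and 1.16% of control-alone peaks, and chromosome 17 holds 4.10% and 2.71%.

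One stretch of chromosome 17, noticed only after the values were seen, held a run of strong knockdown-alone peaks. In 100-kb windows, 8702 windows held 1 knockdown-alone peak and the most in any other window was 8, whereas a pair of adjacent windows on chromosome 17 held 14 each. The run spans chr17:15935536-16075363 (hg19, 139.8 kb) and holds 26 knockdown-alone peaks, with starts a median of 5236 bp apart. Their tag counts were 8.05 to 49.8 per 10 M with a median of 21.4, and their fold over the local background was 5.38 to 26.8 with a median of 10.7. Of the 45 knockdown-alone peaks on the autosomes and X with 20 or more tags per 10 M, 14 lay in this run.

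Inside the run the other HOXB13 libraries had peaks too. The knockdown list held 28 peaks there, the WT list 19 (4.97 to 47.4 tags per 10 M), the G84E list 20 (5.43 to 37.8) and the control list 9 (6.11 to 48.0). An even spread over the genome would put 1.05 peaks of the knockdown, 8.79 of the WT, 8.84 of the G84E and 4.21 of the control list in such a stretch. Of the 28 knockdown peaks, 26 overlapped no peak of another HOXB13 list, a share near the 89.1% of the whole knockdown list. Of the 9 control peaks, 6 overlapped a WT or G84E peak and 0 overlapped a knockdown peak. The strongest peak of the WT, of the G84E and of the control list in the run lay at 29.7 kb from its middle in all 3, and the knockdown list had no peak there.

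The other assays had 0 to 6 peaks a list in the run. The HDAC3 list held 2 in shHOXB13 cells, where an even spread would put 1.43, and 1 in pGIPZ cells, where it would put 1.56. The ATAC-seq list held 2 in shHOXB13 cells, against 1.38, and 1 in pGIPZ cells, against 1.71. The HDAC1 list held 0, against 0.766, and the PC-3 HOXB13 list 6, against 3.26. The PC-3 H3K27ac list held 4 after shHOXB13, against 2.29, and 3 with pGIPZ, against 2.32. Of the 26 knockdown-alone peaks, 22 overlapped no peak of the 8 other lists. Of the 5 strongest knockdown-alone peaks on the autosomes and X with no other list, 4 lay in it. The strongest, at chr17:16004669-16004925, had 49.8 tags per 10 M (43.6 to 56.6), 23.2-fold over the local background, and the nearest other HOXB13 peak was a WT peak of 12.7 at 1390 bp. The next, at chr17:15964863-15965119, had 40.5, with a G84E peak of 7.92 at 434 bp. The one outside it, at chr21:10764084-10764340, had 30.1, at 4.40-fold over the local background. Without the run, 20355 knockdown-alone peaks remained, and 43 of the 57 with 20 or more tags per 10 M, counted over all chromosomes and contigs.

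**Figure D5:**
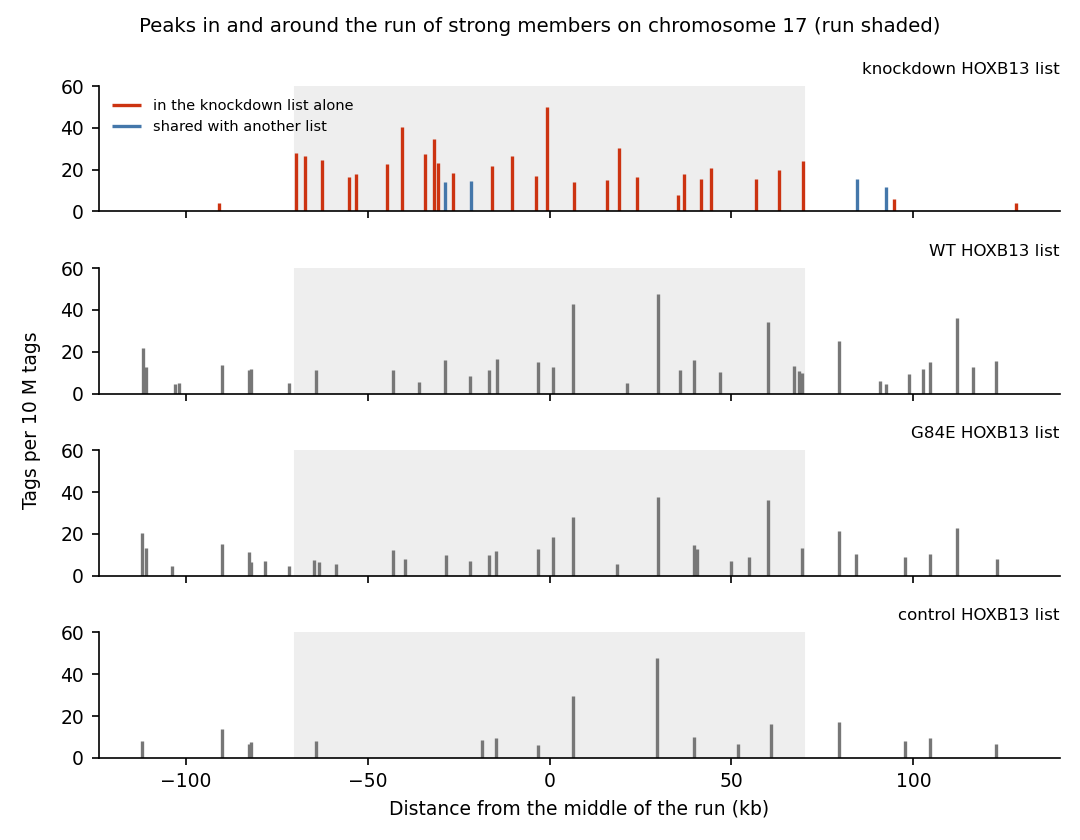
Vertical lines give the tags per 10 M of each HOXB13 peak against its distance in kb from the middle of the run on chromosome 17 (shaded), for the knockdown, WT, G84E and control lists from top to bottom. The 26 knockdown-alone peaks in the run reach 49.8, and 2 of the 28 knockdown peaks in it overlap a peak of another list.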

How the data were processed

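Peak lists of 12 libraries were used, with groups taken from the labels. The submitters' processing notes name Bowtie2, HOMER 4.2 and hg19. Peaks were called by the authors in each library by itself, per the file headers, using findPeaks without an input library, at a false discovery rate of 0.001, a local Poisson p-value of 0.0001 and 4-fold over the surrounding 10000 bp (histone style for H3K27ac). The signal in the deposited lists is the normalized tag count per 10 M tags (M for mega). The score, the fold ratio over local background, the focus ratio (a fraction) and the p-value are the authors' own deposited values for each peak, and the score and fold were used only to describe and filter.

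Here, whole tags were recovered from the tag count and the library total. Peaks overlapped when they shared at least 1 bp. Shares have Wilson, differences Newcombe, medians order-statistic and tag counts Poisson 95% intervals. A difference was called where its interval left out 0. Differences were also weighted over 10 groups of tag count. The overlap and interval calculations were tested on simulated data. Named regions were the 10 strongest members, the 5 strongest in no other list (autosomes and X), the 5 strongest with HDAC3, HDAC1 and ATAC-seq, and 3 on each side of the rule's edge. The members and lists were chosen with earlier results of these data known. Peaks were not paired with genes or sequence, since no hg19 genome was used here. Python 3.11.15, numpy 2.4.6, pandas 2.3.3, scipy 1.17.1 and matplotlib 3.10.9 were used.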

Additional observations from a re-analysis of the deposited data

How the results depend on the processing

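The 8 differences between knockdown-alone and shared knockdown peaks kept their direction, with intervals that left out 0, under all alternatives run, but their size moved. For HDAC3 of shHOXB13 cells the difference of -29.0 points was -13.6 at 1000 bp, -15.6 without peaks in 8 or more lists, -41.6 with equal numbers and -58.8 at 8-fold. For ATAC-seq of shHOXB13 cells -16.7 was -6.43, and for PC-3 H3K27ac after shHOXB13 -26.5 was -11.3, without peaks in 8 or more lists. The alternatives were peak centres within 100 bp, overlap of 50% of the shorter peak, members at least 1000 bp from other HOXB13 peaks, the better-scoring 50% of each list, 8-fold over local background, equal numbers of HOXB13 peaks, autosomes and X only, removal of peaks in 8 or more of the other 11 lists, weighting by tag count, and leaving out the run on chromosome 17 (added after the values were seen). Against control-alone peaks, under the same alternatives other than weighting by tag count, which was not run for them, the differences for HDAC1, ATAC-seq of shHOXB13 cells and PC-3 HOXB13 kept direction and call, at 4.98, -13.6 and -22.1 points with equal numbers, where they were 4.76, -1.51 and -6.32 with full lists. That for HDAC3 of shHOXB13 cells did not: from -0.961 points it became -0.133 with centres, 0.220 in the better-scoring 50% and 1.24 at 8-fold, each with an interval that held 0, while with equal numbers it was -10.5 (-11.4 to -9.55). The number of members was 10290 in the better-scoring 50% and 1153 at 8-fold. The median HDAC3 log2 ratio, shHOXB13 over pGIPZ, stayed negative at -0.36 with centres, -0.41 at 1000 bp, -0.29 at 8-fold and -0.093 per bp. The cause was not tested. No paired analysis was possible because each group held 1 library. Depth limits single members: a peak at the median of 4.87 tags per 10 M held 23 tags.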
